A study of Mus musculus with 32 samples.

Results

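The aminoacyl tRNA synthetase genes were followed in skeletal muscle of *Mtm1* KO mice and WT mice at 4 ages after birth. The 35 genes were taken from a list of names. Of these, 19 were counted as cytosolic enzymes and 16, with names ending in 2, as mitochondrial enzymes. The list holds no mitochondrial gene for lysine (*Kars*) or glycine (*Gars*). The cytosolic label therefore does not state that these genes serve the cytosol alone. All 35 were found in the deposited table of 54838 genes, and all passed the filter on low counts at every age. The table held RNAseq counts of 32 libraries, with 4 mice of each genotype at postnatal days 1, 14, 21 and 35 (P1, P14, P21 and P35). KO mice carry a targeted deletion in *Mtm1* exon 4 (*Mtm1*-/y), so the loss is present in every cell from conception, and MTM1 is the myotubularin phosphatase that is absent in X-linked myotubular myopathy. Both genotypes were on the C57BL6/J background, onto which the line had been brought from 129S2PAS, and the labels name no treatment. The labels give the tissue as skeletal muscle and the study's methods as the tibialis anterior (TA) muscle, so each library holds the RNA of all cell types of a muscle.

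Each synthetase joins 1 amino acid to its tRNAs, and the charged tRNA then brings that amino acid to the ribosome. Muscle needs the cytosolic set, which serves the nuclear messages including those of the contractile proteins, and a mitochondrial set, which is encoded in the nucleus, imported and used to translate the few respiratory chain subunits of the mitochondrial genome. Several cytosolic members sit with the scaffold proteins AIMP1, AIMP2 and EEF1E1 in the multi-synthetase complex. Some cytosolic synthetase genes are known targets of ATF4 in the amino acid response, and inherited loss of several mitochondrial synthetases causes disease of brain, heart or muscle.

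Counts per library summed to between 49321035 and 85631408, and the members held between 149 and 31162 counts in any library. Libraries were scaled by TMM, which sets them by the bulk of their genes, and a gene was called where edgeR's quasi-likelihood test gave an adjusted *P* under 0.01. *Mtm1*, the targeted gene, averaged 20.7, 20.6 and 22.1 CPM (counts scaled to a common library size) in WT at P21, P14 and P35, and 3.14, 4.07 and 3.69 CPM in KO. At these ages *Mtm1* was lower in every KO library (log2 fold change -2.71, -2.34 and -2.56, adjusted *P*=8.13e-06, 5.27e-06 and 1.83e-06). At P1 it was 5.51±0.344 CPM in WT and 2.77±0.764 CPM in KO (SD, n=4), and although the libraries did not overlap the difference was not called (adjusted *P*=0.0668). None of the 6 muscle fibre markers was at or under 3 counts in all libraries of a group. Their summed level at P35 was 91581-141766 CPM in WT and 59467-84644 CPM in KO. Keratinocyte markers, which a muscle should lack, summed to 1544-5986 CPM in the P1 libraries and to no more than 6.97 CPM in any later one.

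Promoter sequence was available for 26 of the 35 genes (12 cytosolic and 14 mitochondrial) in RefSeq on GRCm38.p6, as the 250 bases before and 50 bases after the gene start. The 5 stretches shown here hold the letters that were found in promoters of 1 compartment and in none of the other. TGATGNAA, the core of the C/EBP-ATF element through which ATF4 acts, was searched on both strands and found in 5 promoters, all of cytosolic genes (*Aars*, *Gars*, *Iars*, *Tars* and *Yars*), and in 3.97% of 32851 promoters of the same length. GCATGCGC, the core letters of the site of NRF1, a factor known for nuclear genes of mitochondrial function, was found in 3 promoters, all of mitochondrial genes (*Rars2*, *Vars2* and *Wars2*), and in 2.71% of all promoters. CACGTG, the E-box letters, were found in 5 (*Aars*, *Ears2*, *Farsb*, *Iars* and *Tars*) and in 7.15% of all promoters. Such matches are descriptions of letters, with no factor measured, and 9 genes were not covered. In the lines that follow, written 5′ to 3′ on the strand of the gene, capitals mark the match, which in the first 3 lines lies on the other strand (TGATGNAA for *Gars* and *Tars*, GCATGCGC for *Wars2*). The matches start at -30 (*Gars*), -15 (*Tars*), -64 (*Wars2*), -46 (*Vars2*) and -51 (*Rars2*) from the gene start, and *Vars2* holds a further copy at -20, left in lower case.
Gars (chr6:55037921-55038000, plus strand): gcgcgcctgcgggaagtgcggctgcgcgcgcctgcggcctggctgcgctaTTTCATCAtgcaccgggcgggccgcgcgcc
Tars (chr15:11399659-11399723, minus strand): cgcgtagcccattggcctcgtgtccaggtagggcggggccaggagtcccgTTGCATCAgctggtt
Wars2 (chr3:99140976-99141083, plus strand): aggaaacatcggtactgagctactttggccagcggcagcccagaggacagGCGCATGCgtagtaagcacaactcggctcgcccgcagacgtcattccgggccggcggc
Vars2 (chr17:35667593-35667688, minus strand): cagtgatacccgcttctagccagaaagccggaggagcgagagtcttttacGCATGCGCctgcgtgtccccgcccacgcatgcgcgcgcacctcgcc
Rars2 (chr4:34614895-34614924, plus strand): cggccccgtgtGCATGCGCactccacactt

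Cytosolic synthetases were read at higher levels than mitochondrial ones in normal muscle. Per kilobase of exon in WT at P35, the 19 cytosolic genes had a median of 15.4 CPM per kb (range 5.16 to 31.3) and the 16 mitochondrial genes a median of 4.4 CPM per kb (range 1.36 to 25.1). *Nars*, the asparagine enzyme, was the highest of all at 31.3±2.98 CPM per kb, and *Cars*, the cysteine enzyme, the lowest cytosolic one at 5.16±0.515 (SD, n=4). The length used was that of all annotated exons of a gene together (18102 bases for *Eprs*, 4355 for *Nars*), and the order depends on it. In CPM without length, *Eprs* stood at 279±32.4, *Lars2* at 279±51.5 and *Nars* at 136±13.0. *Lars2*, the mitochondrial leucine enzyme, stood at 25.1±4.64 CPM per kb and above all cytosolic genes but *Nars*, whereas the next mitochondrial gene, *Iars2*, was at 11.1±0.424 CPM per kb. *Nars2* was lowest at 1.36±0.127 CPM per kb, next to *Pars2*, *Wars2* and *Ears2* between 1.39 and 1.44 CPM per kb, and these neighbours differed by less than their spread. The levels of *Lars2* also spread widely within groups, from 139 to 365 CPM in KO at P1, where replicate 3 alone lay above 183 CPM.

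The question of the first comparisons was how the genes behave as normal muscle matures. From P1 to P14 in WT, 27 of 35 members rose (14 of 19 cytosolic and 13 of 16 mitochondrial) and 1 cytosolic member fell with TMM scaling, against 5 higher and 18 lower with library totals, in a comparison where 70.5% of 17435 genes were called, 33.5% higher and 37% lower. *Eprs* (chr1:185363044-185428360), the glutamate and proline enzyme of the multi-synthetase complex, had the highest estimate. It was read at 101, 108, 106 and 99.6 CPM in the 4 WT libraries of P1 and at 286, 260, 322 and 395 CPM at P14, without overlap. Its log2 fold change was 1.60±0.123 (s.e.), a 3.03-fold rise (adjusted *P*=1.96e-06). Among mitochondrial genes, *Aars2* (chr17:45506841-45520843), the alanine enzyme, was read at 7.25, 7.18, 7.84 and 7.95 CPM at P1 and at 21.9, 21.2, 22.6 and 24.9 CPM at P14, so that every library of P14 was above every one of P1 (log2 fold change 1.57±0.0724, adjusted *P*=1.14e-07). *Tars2* and *Fars2*, the threonine and phenylalanine enzymes, rose by 1.36±0.0769 and 1.22±0.0855 on the log2 scale (adjusted *P*=3.27e-07 and 1.14e-06). Of these genes 9 cytosolic and 6 mitochondrial members also passed a fold of 1.5, as 24.7% of all genes did in that direction. *Vars*, the cytosolic valine enzyme, fell by 0.28 on the log2 scale, from 45.7-52.1 CPM to 38.4-42.2 CPM (adjusted *P*=0.00171). *Lars2* was not called in this step (log2 fold change -0.18, adjusted *P*=0.215).

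The size of this step depended on how libraries were scaled. The median log2 fold change was 0.53 for cytosolic and 0.49 for mitochondrial members, against -0.08 over all genes. With library totals in place of TMM the 3 medians were -0.24, -0.28 and -0.85, so the direction of both compartments flipped. Their distance from all genes stayed at 0.61 and 0.57, which a size factor cannot change, since it moves all genes of a library alike. The 5 members called higher with library totals were 1 cytosolic and 4 mitochondrial genes and the 18 lower were 10 and 8, beside 2209 genes higher and 11471 lower in all. *Eprs*, *Aars2*, *Tars2* and *Fars2* kept their direction and their call under that scaling. In the same step all 5 keratinocyte markers, all 12 proliferation genes, 4 of 5 fibroblast and 5 of 6 macrophage markers fell and all 6 muscle fibre markers rose. Their part in the result was not tested, and in whole muscle fewer cells of a type and less RNA per cell cannot be told apart.

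From P14 to P21 in WT the members that were called in the edgeR fit of the 8 libraries were mitochondrial. Of 16 mitochondrial genes 6 rose (*Lars2*, *Cars2*, *Mars2*, *Aars2*, *Yars2* and *Hars2*) and of 19 cytosolic genes none was called in this fit, in a comparison that called 9.93% of 15337 genes (5.57% higher and 4.36% lower). In 1 edgeR fit of all 32 libraries, 4 cytosolic and 5 mitochondrial genes were called higher. All 19 cytosolic estimates were above 0 with TMM, with a median of 0.15 beside 0.26 for mitochondrial genes, whereas 11 were below 0 with library totals (medians -0.01 and 0.09). Of the cytosolic genes 4 had an adjusted *P* under 0.05, as 25.6% of all genes did, 6 had an unadjusted *P* under 0.05, against 39.6%, and DESeq2 called 3. No member passed a fold of 1.5, which 2.93% of all genes passed in the upward direction. *Lars2* was read at 193, 148, 153 and 174 CPM at P14 and at 268, 265, 212 and 249 CPM at P21 (log2 fold change 0.56±0.105, adjusted *P*=0.00573). *Cars2*, the cysteine enzyme, was read at 10.6, 11.4, 11.2 and 11.9 CPM and then at 15.3, 16, 16.9 and 16.5 CPM (0.51±0.0725, adjusted *P*=0.00183). *Mars2*, which charges the initiator tRNA of mitochondria with methionine, and *Aars2* had log2 fold changes of 0.51±0.104 and 0.49±0.0836 (adjusted *P*=0.00857 and 0.00387). For none of these 4 genes did the libraries of the ages overlap. The number of members called went from 6 to 1 without WT P14 replicate 1 or 2, to 2 without WT P14 replicate 3 or WT P21 replicate 2, to 3 without WT P21 replicate 1, and to 2 (1 higher, 1 lower) with library totals, under which *Aars2* kept its call. All 4 erythroid markers rose over this step, from a summed 258-457 CPM to 1843-2529 CPM, and fell again to 117-351 CPM at P35, and their part in the values of the members was not tested.

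From P21 to P35 in WT no member was called by edgeR, whereas 13 had an unadjusted *P* under 0.05 and DESeq2 called 3, all lower, and 4.77% of 15039 genes were called. At an adjusted *P* under 0.05 there were 8 members, all lower, beside 17.7% of all genes, and 34.4% had an unadjusted *P* under 0.05. The medians were -0.12 for cytosolic and -0.13 for mitochondrial genes. The smallest *P*-values belonged to *Eprs*, at 342-401 CPM in P21 and 259-327 CPM in P35 (log2 fold change -0.41±0.0901, adjusted *P*=0.0161), and to *Mars2*, at 25.1-33.0 and 20-23.0 CPM (-0.41±0.0899, adjusted *P*=0.0163). Without WT P35 replicate 1, *Eprs* passed the threshold at -0.50. The successive WT steps share the libraries of the age between them.

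**Figure D1:**
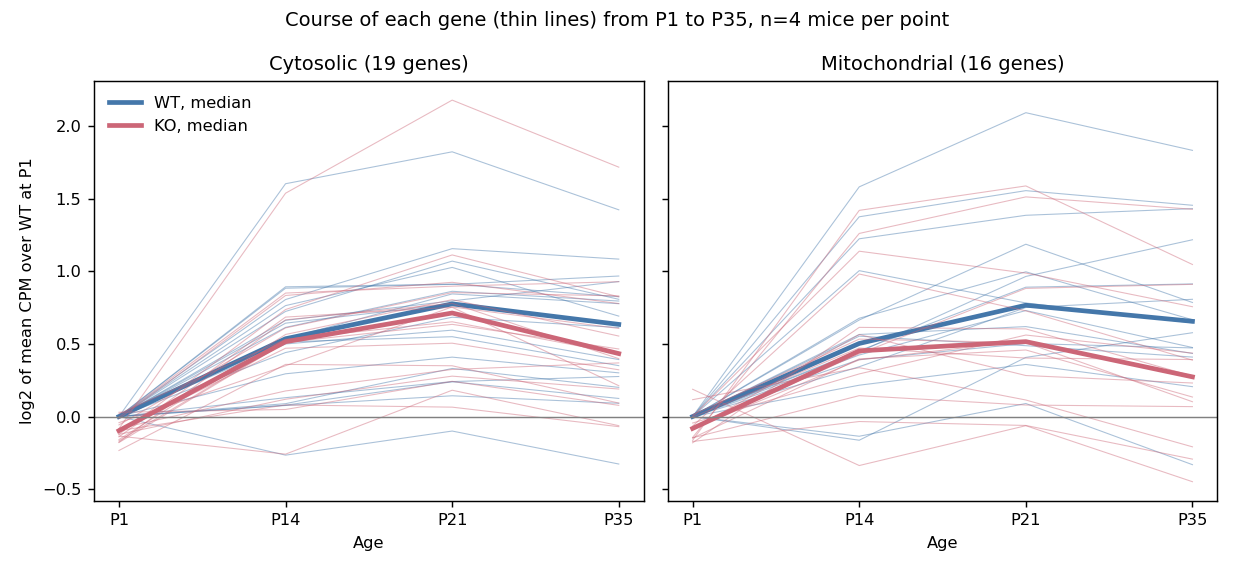
Log2 of the mean CPM of each gene relative to WT at P1 (y axis) against age (x axis), with cytosolic genes on the left, mitochondrial genes on the right, WT in blue and KO in red, thin lines for genes and thick lines for medians, n=4 mice per point. The medians of WT and KO lie together to P14, and from P21 the KO median of the mitochondrial genes lies below that of WT, by more than for cytosolic genes at P21. With library totals in place of TMM, the median change in WT from P1 to P14 is below 0 for both (-0.24 and -0.28).

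Next, KO was compared with WT at each age. At P1 and P14 no member was called by edgeR or by DESeq2. Few genes were called at all, with 0.0442% of 18100 genes at P1 and 0.0381% of 15728 genes at P14. At P1, 3 members, all cytosolic (*Yars*, *Tars* and *Aars*), had an unadjusted *P* under 0.05, and at P14 none had, beside 10.9% and 6.82% of all genes. The smallest *P* at P1 was that of *Yars*, the tyrosine enzyme, at 38.5, 37.8, 34.4 and 33.7 CPM in WT and at 29.9, 31.6, 30.8 and 30.6 CPM in KO. The libraries did not overlap, but over all genes the difference did not pass (log2 fold change -0.22±0.0618, adjusted *P*=0.238). *Tars* followed at 34.8-37.2 and 29.1-34.1 CPM (-0.16±0.0608, adjusted *P*=0.371). At P14 the smallest *P*-values were those of *Hars* (0.10±0.0485, adjusted *P*=0.777) and *Aars2* (-0.17±0.0877, adjusted *P*=0.785). Medians of both compartments lay between -0.08 and -0.06 at both ages, and at P14 they were 0.03 and 0.02 with library totals.

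**Figure D2:**
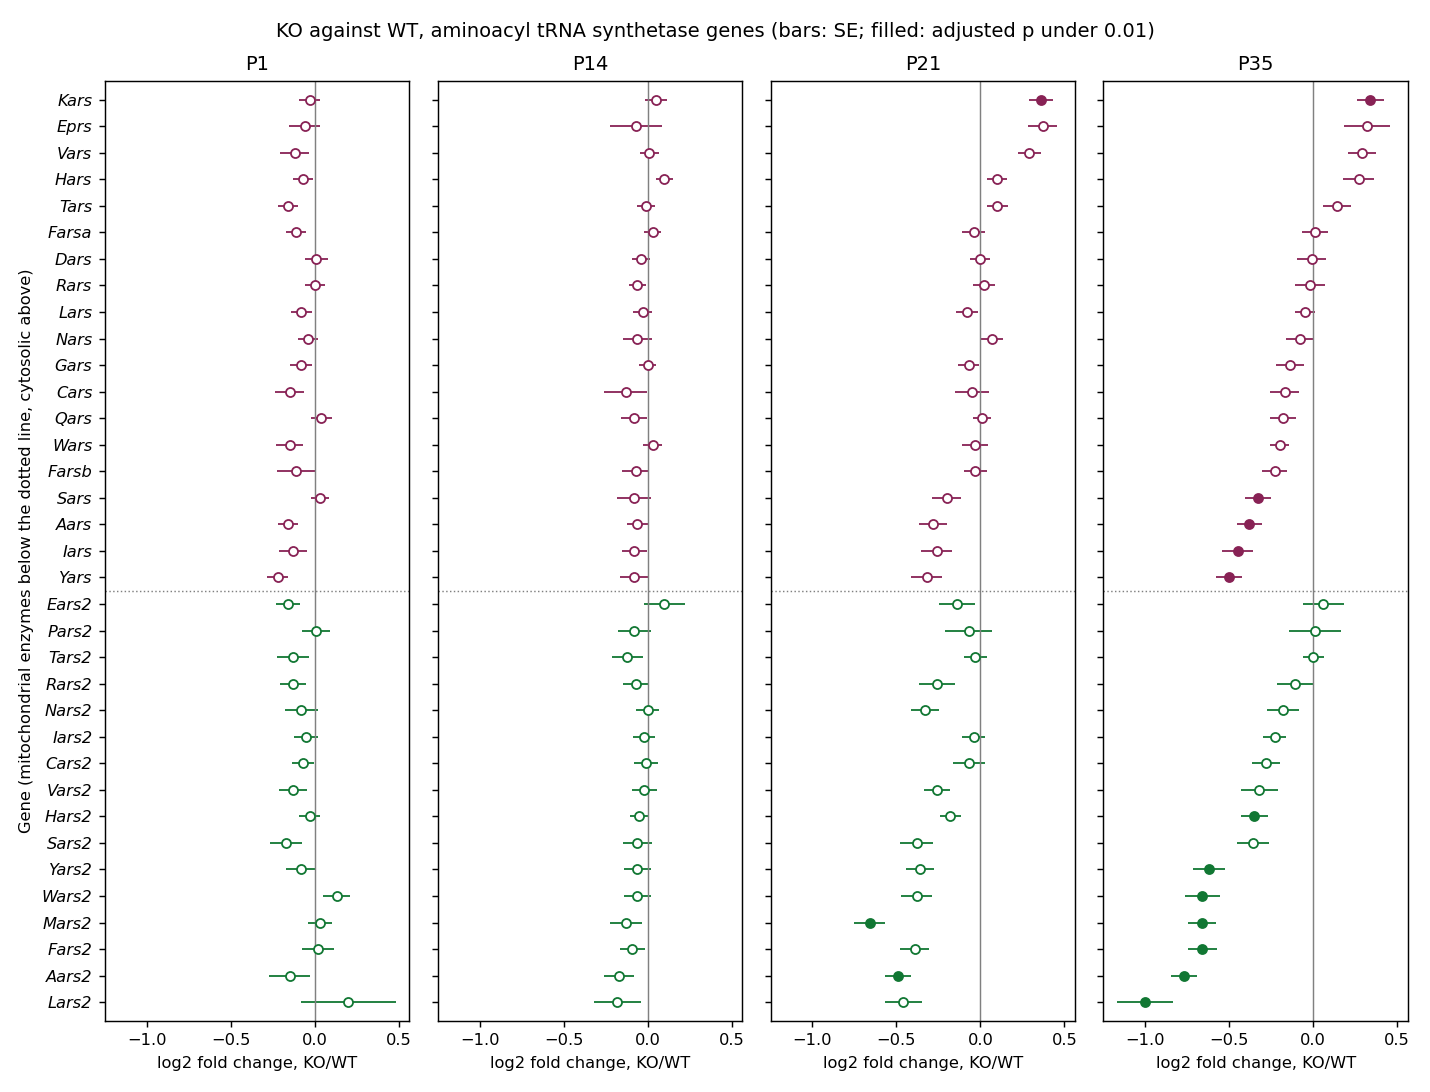
Log2 fold change of KO over WT (x axis) for each of the 35 genes (y axis, ordered by the P35 value within each compartment, cytosolic in purple above the dotted line and mitochondrial in green below it) at the 4 ages, with bars for the s.e. of the edgeR fit and filled points for adjusted *P* under 0.01. Points gather near 0 at P1 and P14, all 16 mitochondrial points lie below 0 at P21 (10 of 16 with library totals in place of TMM), and 7 of them and 5 cytosolic points are filled at P35.

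At P21 the estimates of the mitochondrial synthetases lay below 0 and those of the cytosolic ones on both sides of it. All 16 mitochondrial estimates were below 0 (10 with library totals), with a median log2 fold change of -0.29 (-0.10 with library totals), whereas 11 of 19 cytosolic estimates were below 0 with a median of -0.03, beside 0.01 over all genes. Called were 2 of 16 mitochondrial genes, both lower, and 1 of 19 cytosolic genes, which was higher, in a comparison that called 8.13% of 15179 genes (3.39% lower and 4.74% higher). At an adjusted *P* under 0.05, 9 mitochondrial genes were lower and none was higher, while 2 cytosolic genes were lower and 3 higher, against 9.57% and 11.4% of all genes. All KO libraries lay below all WT libraries for 9 mitochondrial and 3 cytosolic genes and above them for 2 cytosolic genes, where 11% and 13.7% of all genes were apart in this way.

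*Mars2* (chr1:55237177-55248470) was read at 33.0, 25.1, 26.0 and 27.8 CPM in WT and at 18.9, 15.7, 17.0 and 18.4 CPM in KO at P21. Every KO library lay below every WT library, the mean was 0.631 times that of WT (log2 fold change -0.66±0.0949, adjusted *P*=0.00194), and *Mars2* was the only member that also passed a fold of 1.5, which 1.5% of all genes did in that direction. *Aars2* was read at 36.7, 32, 29.1 and 30.8 CPM in WT and at 22.8, 22.9, 21.0 and 24.3 CPM in KO, again without overlap (-0.49±0.079, adjusted *P*=0.00345). It narrowly missed the threshold without WT or KO replicate 2 (adjusted *P*=0.0102 and 0.0111). *Kars* (chr8:111993443-112011323), the lysine enzyme of the multi-synthetase complex, went the other way. It was read at 99.1, 97.7, 90.7 and 99.6 CPM in WT and at 128, 135, 111 and 119 CPM in KO. The KO libraries were all above the WT libraries, at 1.29 times their level (0.36±0.0699, adjusted *P*=0.00705), and the call held in 1 of the 8 fits that each left out 1 library, the one without KO replicate 3. *Eprs*, of the same complex, had a similar estimate (0.37±0.0868) that was not called (adjusted *P*=0.0161), with 400-525 CPM in KO and 342-401 CPM in WT. The count of 3 members called fell to 1 without WT replicate 2 or KO replicate 2. With DESeq2 it was 12 (3 cytosolic higher, 9 mitochondrial lower).

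At P35 more of both sets passed the test. Called were 7 of 16 mitochondrial genes, all lower, and 5 of 19 cytosolic genes, of which 4 were lower, where 24.5% of 15595 genes were called (12.5% lower and 12% higher). At an adjusted *P* under 0.05 these counts were 11 of 16 mitochondrial genes, all lower, and 9 of 19 cytosolic genes, 6 lower and 3 higher, against 20.1% of all genes lower and 21.4% higher. The libraries of the genotypes were apart for 11 mitochondrial genes, all lower in KO, and for 8 cytosolic genes, 7 lower and 1 higher, beside 20.4% and 19.2% of all genes. By the 2 structural classes of the catalytic domain, 6 of 17 class I and 6 of 17 class II genes were called, with *Eprs*, which holds both, counted in neither. DEGs, with a fold over 1.5 as well, were 6 mitochondrial genes and no cytosolic one, against 7.52% of all genes in that direction. The median log2 fold change was -0.33 for mitochondrial and -0.08 for cytosolic genes, and 0.04 for all genes, whereas with library totals these medians were 0.07, 0.32 and 0.44.

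*Lars2* (chr9:123366927-123462666) had the lowest estimate. It was read at 312, 282, 205 and 316 CPM in WT and at 170, 139, 111 and 127 CPM in KO at P35, so that the highest KO library lay below the lowest WT library. The log2 fold change was -1.0±0.166, a level 0.5 times that of WT (adjusted *P*=0.0014). Its cytosolic partner *Lars* was read at 52.4, 51.1, 49.3 and 49.1 CPM in WT and at 45.8, 47.3, 49.5 and 49.3 CPM in KO, with overlap (-0.05±0.0603, adjusted *P*=0.554). *Aars2* was read at 24.1, 26.6, 29.3 and 27.8 CPM in WT and at 15.8, 15.1, 15.8 and 15.6 CPM in KO, without overlap, and was 0.588 times WT (-0.77±0.0762, adjusted *P*=0.000144). Its partner *Aars* was called as well, at 114, 107, 99.3 and 98.8 CPM in WT and at 77.8, 81.4, 74.4 and 82.7 CPM in KO, but at a smaller size (-0.38±0.0742, adjusted *P*=0.00315). The call of *Aars* was lost without WT replicate 2 or KO replicate 3 (adjusted *P*=0.0102 and 0.0117).

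*Wars2* (chr3:99141068-99239186), the tryptophan enzyme, was read at 8.39, 7.98, 9.33 and 8.12 CPM in WT and at 5.83, 5.25, 5.33 and 4.67 CPM in KO at P35, without overlap (-0.66±0.105, adjusted *P*=0.00121). Its promoter holds GCATGCGC, as do those of *Vars2* and *Rars2*, which were not called at P35. The cytosolic *Wars* was at 45.1-47.2 CPM in WT and 38.2-41.1 CPM in KO, without overlap and not called (-0.20±0.0582, adjusted *P*=0.023). *Mars2* was read at 20.5, 21.4, 23.0 and 20 CPM in WT and at 13.2, 14.1, 12.0 and 13.7 CPM in KO, again without overlap (-0.66±0.0827, adjusted *P*=0.000378). All calls of *Lars2*, *Aars2*, *Wars2* and *Mars2* at P35 held when any 1 library was left out. The other mitochondrial genes called were *Fars2* (-0.66±0.086), *Yars2* (-0.62±0.0977) and *Hars2* (-0.35±0.0811), with adjusted *P*=0.000457, 0.00111 and 0.00807, and the last held only in the fit without WT replicate 1. The 9 others lay between -0.36 and 0.06, with *Ears2* and *Pars2* the only estimates above 0, and *Tars2* at 30.9-32.4 CPM in WT and 28.9-32.9 CPM in KO.

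**Figure D3:**
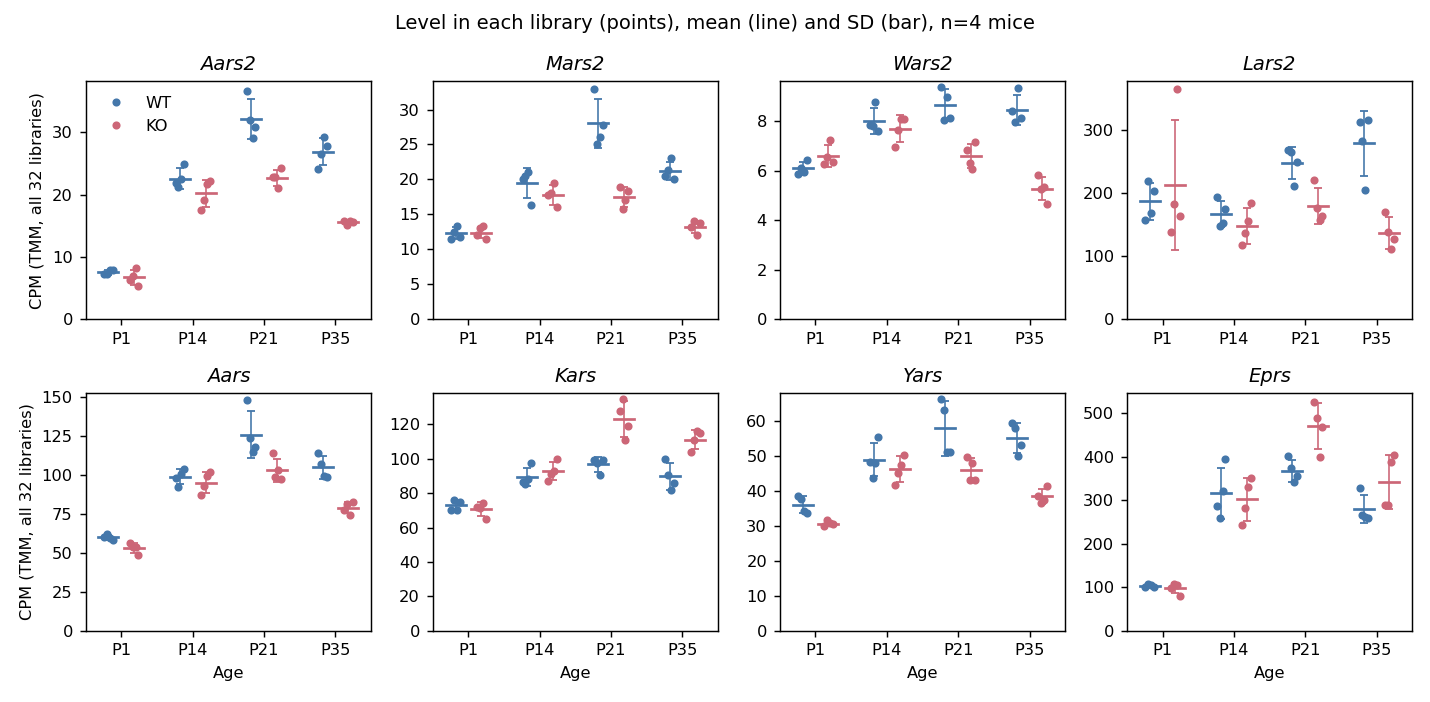
CPM of 4 mitochondrial (upper row) and 4 cytosolic (lower row) synthetase genes (y axes, from 0, scaled by TMM over all 32 libraries) by age (x axes), with a point per library, a line at the mean and a bar for the SD, n=4 mice, WT in blue and KO in red. At P35 all KO points of *Aars2*, *Mars2*, *Wars2*, *Lars2*, *Aars* and *Yars* lie below all WT points, those of *Kars* lie above, and those of *Eprs* overlap. With library totals in place of TMM the estimate of *Aars* at P35 is 0.02.

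Of the cytosolic genes at P35, *Kars* was again higher in KO, at 104, 111, 116 and 115 CPM against 100, 90.7, 82.0 and 86.0 CPM in WT, without overlap (0.34±0.08, adjusted *P*=0.00863). This call held in 1 of 8 fits with 1 library left out, the one without WT replicate 1, and was lost with size factors by RLE (adjusted *P*=0.0129) and without the filter on low counts (0.0133). *Yars* was lowest relative to WT, at 36.5-41.4 CPM in KO and 50.2-59.5 CPM in WT (-0.50±0.0763, adjusted *P*=0.000994), and its call held in all 8 such fits. Its KO libraries were all below its WT libraries, as were those of *Iars* and *Sars*. *Iars*, the isoleucine enzyme, was at 58.1-67.7 CPM in KO and 75.8-98.4 CPM in WT (-0.45±0.0942, adjusted *P*=0.00437), and *Sars*, the serine enzyme, at 73.9-90.5 and 99.4-111 CPM (-0.33±0.0789, adjusted *P*=0.00869). *Iars* was not called without WT replicate 2 or 3 or KO replicate 1, 3 or 4, and *Sars* was called only without KO replicate 4. The count of 12 members called was 7 without WT replicate 2 or KO replicate 3. Of the 5 cytosolic genes with TGATGNAA in the promoter, 3 were called lower at P35 (*Aars*, *Iars* and *Yars*), beside 12.5% of all genes, and 2 were not called (*Gars* at -0.14 and *Tars* at 0.14). The match lay after the gene start in *Yars* (from 3) and *Iars* (from 7), and in *Aars* there were matches from -112 and from 9. In *Gars* and *Tars* it lay before the gene start. A relation of position to call was not tested, and the motif was chosen with earlier results known. Of the other 14 cytosolic genes, 7 of which had no entry in the promoter table, 1 was called lower (*Sars*). Of the 7 members of the multi-synthetase complex *Kars* was higher and *Iars* lower, with a median of -0.02, and of the 12 cytosolic genes outside it 3 were lower, with a median of -0.15.

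These counts depend on the scaling of libraries. At P35 the median of all genes moved from 0.04 with TMM to 0.44 with library totals, and at P21 from 0.01 to 0.20. Counts from mitochondrially encoded genes, which count in the library total, made up 12.4-17.9% of a WT library, highest in replicate 3, and 10.3-10.5% of a KO library at P35, and 9.75-12.0% and 8.21-8.78% at P21. Their part in the results was not tested. With library totals, 11 members were called higher at P35 (10 cytosolic and 1 mitochondrial) and 2 mitochondrial genes lower, where all genes split into 6312 higher and 545 lower, and 6 cytosolic genes were called higher and 2 mitochondrial genes lower at P21, among 2547 genes higher and 199 lower. The 2 lower at P35 were *Lars2* (-0.59) and *Aars2* (-0.36), while *Wars2*, *Mars2*, *Fars2*, *Yars2*, *Yars* and *Iars* stayed below 0 with no call. *Aars*, *Sars* and *Hars2* turned above 0 (0.02, 0.07 and 0.06) with no call, *Lars* was called higher (0.36, adjusted *P*=0.00106), and *Wars* was at 0.21 with no call (adjusted *P*=0.0122). The distance between the 2 compartments is no test of the scaling, because a size factor moves all genes of a library alike. Relative to all genes, the mitochondrial median was -0.30 at P21 and -0.37 at P35 and the cytosolic median -0.04 and -0.12, whichever scaling was used.

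The comparison of the 2 compartments was therefore also made within each library, where no scaling enters. The mean log2 CPM of the 16 mitochondrial genes minus that of the 19 cytosolic genes was -1.90 to -1.82 in WT and -1.90 to -1.69 in KO at P1, and -1.86 to -1.71 and -1.84 to -1.78 at P14, with overlap at both ages. At P21 this value was -1.71 to -1.64 in WT and -2.05 to -1.91 in KO, and at P35 -1.81 to -1.51 and -2.09 to -1.87, without overlap. Ratios of a mitochondrial to a cytosolic gene for the same amino acid numbered 16. Among them *Fars2* was set against both *Farsa* and *Farsb*, and *Eprs* was set against both *Ears2* and *Pars2*. On average 15 were lower in KO at P21 and 15 at P35, against 4 at P1 and 10 at P14. All KO libraries lay below all WT libraries for 7 ratios at P21 and 6 at P35, and for 1 at P1 and 1 at P14. The median difference of these log2 ratios was -0.32 at P21 and -0.27 at P35, and 0.06 and -0.01 at P1 and P14. For *Lars2* over *Lars* the log2 ratio at P35 was 2.58, 2.46, 2.06 and 2.69 in WT and 1.89, 1.55, 1.16 and 1.37 in KO. For *Aars2* over *Aars* it was -2.25, -2.01, -1.76 and -1.83 in WT and -2.30, -2.43, -2.24 and -2.40 in KO, so that WT replicate 1 lay among the KO libraries. No *P*-value belongs to these summaries, since genes are not replicates. The cytosolic median minus the mitochondrial median of the fold changes was 0.25 at P35 and ranged from 0.12, without WT replicate 3, to 0.34, without WT replicate 1.

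**Figure D4:**
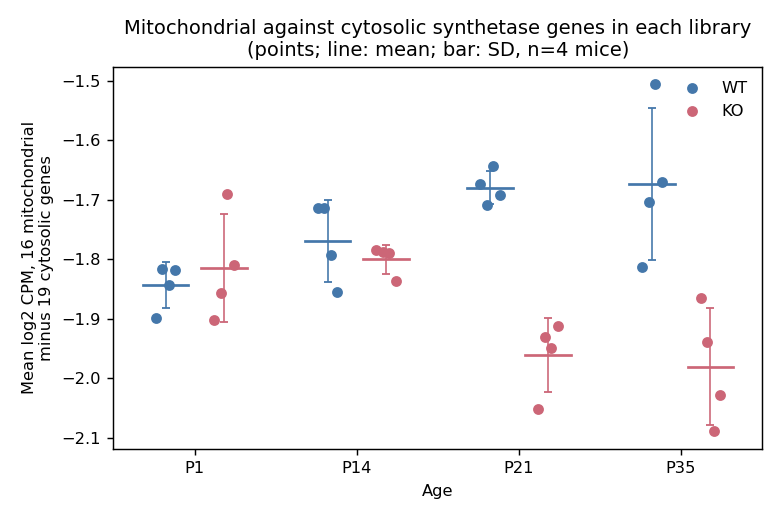
Mean log2 CPM of the 16 mitochondrial genes minus that of the 19 cytosolic genes in each library (y axis) by age (x axis), with WT in blue and KO in red, a line at the mean and a bar for the SD, n=4 mice. The genotypes overlap at P1 and P14, and all KO libraries lie below all WT libraries at P21 and P35.

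Whether the KO effect differed between ages was tested itself, as the interaction of genotype and age in a fit of all 32 libraries. No member was called by edgeR in any of the 3 tests, in which 0.0161% (P14 against P1), 0.425% (P21 against P14) and 0.463% (P35 against P21) of 18583 genes were called. Unadjusted *P*-values under 0.05 were found for 0, 12 and 7 members, beside 6.46%, 12.9% and 17.4% of all genes, and DESeq2 called 0, 1 and 0. The smallest adjusted *P* was that of *Mars2* for P21 against P14, at which its KO effect was lower by a log2 value of -0.55±0.126 (adjusted *P*=0.0231), and it was the only member with an adjusted *P* under 0.05, as 1.42% of all genes had. For P35 against P21 the value of *Lars2* was -0.56±0.296 (adjusted *P*=0.336) and that of *Mars2* -0.01±0.126. A call at 1 age and none at another was thus not a called difference between the ages for any member in the edgeR fit with TMM, whereas for P21 against P14 DESeq2 called 1 mitochondrial gene lower and edgeR with library totals 1 cytosolic gene higher. The KO comparison at P21 and the WT step from P14 to P21 share the WT libraries of P21, at which *Mars2* had its highest WT level (25.1-33.0 CPM, against 16.3-21.1 CPM at P14), while KO libraries were at 16-19.5 CPM at P14 and 15.7-18.9 CPM at P21.

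Genes that work beside the synthetases were counted from lists. Of the 3 scaffold genes of the multi-synthetase complex, *Aimp2* was lower in KO at both late ages. It was read at 253, 247, 169 and 239 CPM in WT and at 88.5, 81.0, 76.9 and 93.9 CPM in KO at P35, without overlap (-1.39±0.132, adjusted *P*=0.000127), a larger estimate than that of any synthetase. At P21 it was lower by a log2 value of -0.61±0.112 (adjusted *P*=0.00585), a call that held only without WT replicate 3 or KO replicate 4. *Aimp1* and *Eef1e1* were not called at P35 (-0.04±0.1 and 0.35±0.138). Mitochondria make their glutaminyl tRNA by an amidotransferase in place of a synthetase. Of the 4 genes for this enzyme and for formylation of the initiator tRNA, 2 were lower at P35, beside 12.5% of all genes. These were *Qrsl1*, at 25.1, 29.1, 33.2 and 29.3 CPM in WT and at 14.6, 15.9, 13.6 and 16.3 CPM in KO, again without overlap (-0.92±0.1, adjusted *P*=0.000202), and *Gatc* (-0.50±0.069, adjusted *P*=0.000593). *Gatb* (-0.39±0.113) and *Mtfmt* (-0.19±0.103) were not called. *Qrsl1* was also lower at P21 (-0.56±0.0847, adjusted *P*=0.00244).

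Of 8 mitochondrial translation factors 5 were lower in KO at P35 and none was higher, with a median of -0.49, and 3 were lower at P21, beside 12.5% and 3.39% of all genes. The 3 at P21 were *Mtif2*, *Mtrf1l* and *Gfm2*, of which the last 2 were called in only 1 of 8 fits with a library left out, and with library totals none of the 3 was called (adjusted *P*=0.0157, 0.0261 and 0.0751). The elongation factor *Gfm1* was read at 166-189 CPM in WT and 106-122 CPM in KO (-0.60±0.0725, adjusted *P*=0.000315), and its relative *Gfm2*, which acts in ribosome recycling, differed by -0.64±0.0709. The initiation factor *Mtif2* and the elongation factor *Tufm*, which brings the charged tRNA to the mitochondrial ribosome, differed by -0.44±0.0717 and -0.54±0.105 (adjusted *P*=0.00136 and 0.00331). The call of *Tufm* was lost without WT replicate 2 or 4 or KO replicate 1. With library totals *Gfm1*, *Mtif2*, *Tufm* and *Gatc* kept their direction without a call. Of 6 cytosolic elongation factor genes 2 were higher at P35, beside 12% of all genes. *Eef1a1*, the form of the tRNA carrier that muscle replaces after birth, was read at 583, 642, 698 and 634 CPM in WT and at 1071, 1284, 1349 and 1044 CPM in KO, with all KO libraries above all WT libraries (0.92±0.112, adjusted *P*=0.000334). *Eef1a2*, the form of mature muscle, was not called (-0.27±0.122, adjusted *P*=0.106), and *Eef1b2*, of the exchange factor, was higher (0.61±0.102, adjusted *P*=0.00143). Of the 5 genes for correction of mischarged tRNA and for tRNA ends edgeR and DESeq2 called 0 at P21 and 0 at P35, with 0 and 1 at an unadjusted *P* under 0.05. Over all genes edgeR called 8.13% and 24.5% at these ages.

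The amino acid response, through which ATF4 is known to raise cytosolic synthetase genes, was read from a list of 24 genes. At P35 edgeR called 1 higher and 1 lower, beside 24.5% of all genes called. At P21 it called 2 higher, beside 4.74% of all genes called higher. The medians were 0.01 at P35 and -0.05 at P21. DESeq2 called 4 and 3 of the list, and 7 and 4 had an unadjusted *P* under 0.05 in edgeR. At P1 edgeR called 0 and DESeq2 2, with a median of 0.07. There 10 of the 24 had an unadjusted *P* under 0.05, on both sides of 0, beside 10.9% of all genes. *Pycr1* (-0.54±0.0785, adjusted *P*=0.0369) and *Aldh18a1* (-0.4±0.0629, adjusted *P*=0.0493) were among them. At P14 neither method called any, and 2 had an unadjusted *P* under 0.05, beside 6.82%. *Psat1*, of serine synthesis, was read at 3.87, 5.52, 4.13 and 3.99 CPM in WT and at 8.95, 11.7, 10.8 and 8.77 CPM in KO at P35, without overlap (1.22±0.15, adjusted *P*=0.000334). *Gpt2*, the mitochondrial alanine aminotransferase, was lower (-1.70±0.323, adjusted *P*=0.00283), at 284-614 CPM in WT and 71.3-196 CPM in KO, and was not called without KO replicate 3. The 2 genes higher at P21 were *Eif4ebp1* (0.53±0.0729, adjusted *P*=0.0016) and *Chac1* (1.40±0.261, adjusted *P*=0.00616), named after their values were seen, and the call of *Chac1* held only without KO replicate 1. At P35 *Chac1* was at 14.5-35.9 CPM in WT and 3.72-15.9 CPM in KO, with no call (-1.47±0.426, adjusted *P*=0.021), and its KO effect was lower at P35 than at P21 (-2.88±0.571, adjusted *P*=0.00706). *Atf4* itself was at 145-180 CPM in WT and 143-166 CPM in KO at P35 (-0.05±0.0876, adjusted *P*=0.695), and *Asns*, a known target, at 1.48-2.03 and 1.83-2.88 CPM (0.31±0.188, adjusted *P*=0.21).

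Markers of other cell types moved at the same ages. At P35 3 of 6 macrophage markers were higher in KO, with a summed level of 62.4-78.1 CPM in WT and 73.3-104 CPM in KO. At P21 4 of 6 were higher, at 76.8-88.8 and 86.8-107 CPM. *Mrc1*, of the same list, went the other way with no call (-0.34±0.0999 at P35, adjusted *P*=0.0217, and -0.15±0.114 at P21, adjusted *P*=0.382). The other macrophage estimates were above 0 at these ages. Over all genes 12% were called higher and 12.5% lower at P35, and 4.74% and 3.39% at P21. At P21 edgeR called 0 of 5 endothelial, 4 erythroid, 6 muscle fibre and 5 fibroblast markers, whereas DESeq2 called 4, 2, 2 and 0 and unadjusted *P* was under 0.05 for 4, 3, 4 and 4. Endothelial markers summed to 549-835 CPM in WT and 433-518 CPM in KO at that age, without overlap, and erythroid markers to 1843-2529 and 943-1921 CPM. Of 4 adipocyte markers 2 were higher at P35 (218-350 and 355-478 CPM), of 5 endothelial markers 2 were lower (328-611 and 286-356 CPM), and of 6 muscle fibre markers 1, *Acta1*, was lower. Of 5 fibroblast, 4 Schwann cell and 12 proliferation genes edgeR called 0 at P35, whereas DESeq2 called 1, 2 and 1 and unadjusted *P* was under 0.05 for 2, 4 and 3. Schwann cell markers summed to 46.7-394 CPM in WT and 204-860 CPM in KO. None of the macrophage, adipocyte or endothelial markers was at or under 3 counts in all libraries of a group. The part of these cells in the synthetase values was not tested.

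Some members lie where another gene is annotated on GENCODE M21 (GRCm38), and whether counting used the strand is not given in the sources used here. *Hars* and *Hars2* (chr18:36766528-36783205 and chr18:36783008-36792562) overlap head to head by 195 exonic bases. *Iars2* overlaps *Rab3gap2* on the other strand, with 22.7% of its 50-base words also found in other genes, and *Aars* shares 13.8% with other genes, chiefly *Exosc6* on the same strand. For *Fars2*, *Farsb*, *Iars*, *Vars2* and *Cars2* the share was 5.15% to 8.85%, so the values of these genes could hold reads of a neighbour or copy. *Lars2* shared 0.196%, *Wars2* 0.411% and *Kars* 0.236%, and *Aars2*, *Mars2*, *Lars*, *Wars* and *Yars2* shared 0.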

How the data were processed

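The data were 32 RNAseq libraries of TA muscle, each from its own mouse (WT and *Mtm1* KO at 4 ages, n=4 per group). Libraries were made from poly(A) RNA with a directional kit. Per the labels, the authors aligned reads to GRCm38 with STAR 2.6.1 and deposited expected counts per gene made with RSEM 1.2.22, not normalized and not pooled, whereas the study's methods name HTSeq. The annotation release and the strand setting are not given in the sources used here. Groups and replicate numbers came from the sample labels.

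Values were rounded to whole numbers for edgeR 4.0.16 in R 4.3.3. For each KO comparison and WT step the 8 libraries were filtered with filterByExpr, scaled by TMM and compared by the two-sided quasi-likelihood test, and *P*-values were adjusted by Benjamini-Hochberg over every gene in the fit. Genes were called at adjusted *P* under 0.01, and DEGs also had a fold over 1.5 (0.585 on the log2 scale). Interactions were tested in 1 fit of all 32 libraries. Levels are CPM scaled by TMM over all 32 libraries, with SD over n=4 mice, and levels between genes were compared per kilobase of exon (GENCODE M21). Errors of log2 fold changes are s.e. Alternatives were DESeq2 1.42.0, RLE size factors, library totals, no filter, at least 10 counts in every library, a replicate block, 1 fit of all libraries, other thresholds, and each library left out in turn. The edgeR fit was tested on simulated data. Tables were made with pandas 2.3.3 and numpy 2.4.6 in Python 3.11.15, and figures with matplotlib 3.10.9.

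Replicate numbers paired the samples at P14, where libraries of the same number in WT and KO deviated together (r 0.49 to 0.84) in all 4 pairs, as found from the data and not from the labels. With the replicate block 0 members were called at P14, as without it. No 2 libraries of a group agreed within sampling noise. Counts carry counting error and, without molecular identifiers, may hold PCR copies. Members, gene lists and motifs were chosen with earlier results of these data known. Members described in full were the called members with the highest and lowest log2 fold changes (up to 4 each; if none, the 2 with the smallest *P*), the partners of those named at P35, and the extremes of level per length. Of other lists, up to 4 genes with the smallest adjusted *P* at P35 were described. Columns of the table left unused numbered 0.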

Additional observations from a re-analysis of the deposited data

Results flagged for a closer look

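Within groups of 4 libraries, 2 of 152 sets of values held 1 library far from the other 3, where chance marks about 1 in 20. *Eprs* in WT at P35 was read at 327 CPM in the highest library, replicate 1, and at 259 to 266 CPM in the others. *Fars2* in KO at P21 was read at 25.6 CPM in the highest library, replicate 2, and at 22.8 to 23.0 CPM in the others.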

How the results depend on the processing

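Counts of members called at adjusted *P* under 0.01 moved as follows. For KO against WT at P21 the count was 3, and it was 12 with DESeq2, 8 with library totals, 10 in 1 fit of all 32 libraries, 14 at adjusted *P* under 0.05 and 1 for DEGs. At P35 it was 12, and 19 in 1 fit of all libraries, 20 at adjusted *P* under 0.05 and 6 for DEGs. In WT from P1 to P14 it was 28 and 15 for DEGs. From P14 to P21 it was 6, and 11 with DESeq2, 2 with library totals, 13 at adjusted *P* under 0.05 and 0 for DEGs. In 1 fit of all libraries 4 cytosolic and 5 mitochondrial genes were called for that step. From P21 to P35 it was 0, and 3 with DESeq2, 1 with library totals, 2 in 1 fit of all libraries and 8 at adjusted *P* under 0.05. For the KO effect at P21 against P14 it was 0, and 1 each with DESeq2, library totals, the replicate block and adjusted *P* under 0.05. The cause was not tested, apart from the thresholds, which set the count directly. At ages other than P14 same-numbered libraries of WT and KO did not deviate together in all 4 pairs. Their correlations were -0.46 to -0.03 at P1, -0.08 to 0.32 at P21 and -0.12 to 0.28 at P35. Over 0.1 were 2 of 4 pairs at P21 and 2 of 4 at P35, so a partial pairing there remains possible. The replicate block gave 7 members at P35, where *Kars*, *Aars*, *Iars*, *Sars* and *Hars2* lost their call, and 0 in WT from P14 to P21. With 1 library left out the counts ranged from 1 to 4 at P21, 7 to 11 at P35, 28 to 28 and 1 to 7 in the first WT steps, 0 to 1 in the last, and stayed at 0 for P1, P14 and the 3 interactions. With library totals, *Lars*, *Aars*, *Wars*, *Sars* and *Hars2* at P35 turned to 0.36, 0.02, 0.21, 0.07 and 0.06. In KO against WT at P21 and P35 the mitochondrial median stayed below the cytosolic median under every alternative run. A change of scaling alone could not have altered this, since it moves all genes of a library alike. Without *Lars2*, a choice made after seeing the data, the difference between compartment medians was 0.24 at P35. With 1 library left out, its range in KO against WT was -0.06 to 0.03 (P1), 0.00 to 0.05 (P14), 0.26 to 0.33 (P21) and 0.12 to 0.34 (P35), and in the WT steps 0.01 to 0.07, -0.14 to -0.07 and -0.02 to 0.05. The member with the fewest reads, 149 counts in a library, still passed the filter.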
